A study of Mus musculus with 8 samples.

Results

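The genes described here are 9 markers of endothelial cells, the cells that line blood vessels, in the embryonic mouse gonad. All probe sets annotated to Cdh5, Emcn, Icam2, Pecam1, Kdr, Tek, Tie1, Eng or Vcam1 were taken, which gave 14 probe sets for 9 genes among 12488 probe sets on the array. The study hybridised total RNA of dissected gonads to Affymetrix MG_U74Av2 arrays, on which each probe set is a group of short oligonucleotides directed at 1 transcript. The 8 arrays were KO female, WT female, KO male and WT male gonads at E12.5, and the same 4 groups at E14.5, where KO stands for the Wnt4 knock-out, WT for wild type and E for embryonic day. Wnt4 is a secreted protein with a role in building the fetal ovary. Each group had 1 array, the labels give neither the number of embryos behind an array nor the design of the knock-out allele, and the knock-out is not described as restricted to any cell type. No difference between 2 single arrays has a replicate check.

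Endothelial cells carry adhesion proteins at their junctions and on their surface, and receptors that read growth signals from the surrounding tissue. In the fetal gonad of the mouse, endothelial cells enter the XY gonad from the neighbouring mesonephros and build the coelomic vessel, an artery on its surface, and this migration is held back in the XX gonad. Wnt4 is known as one of the signals that hold it back, as XX gonads without Wnt4 form such a vessel. Since whole gonads were measured, fewer endothelial cells and less RNA per endothelial cell cannot be told apart in any value below.

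The promoters of 3 members are shown because Emcn and Tie1 were higher in KO than in WT in all 4 pairs of arrays, while Eng differed little between genotypes. The RefSeq sequences (GRCm38.p6) are 300 bases long and are given 5′ to 3′ on the gene's strand. For Tie1 and Eng they run from 250 bases before the annotated start of the gene to 50 bases after it, and for Emcn from 234 before it to 66 after it. They lie at chr3:137340828-137341127 on the plus strand for Emcn, chr4:118489800-118490099 on the minus strand for Tie1 and chr2:32646345-32646644 on the plus strand for Eng. Capitals mark GGAA on either strand (read as TTCC on the other), the core recognised by ETS-family transcription factors, several of which act in endothelial cells.
Emcn: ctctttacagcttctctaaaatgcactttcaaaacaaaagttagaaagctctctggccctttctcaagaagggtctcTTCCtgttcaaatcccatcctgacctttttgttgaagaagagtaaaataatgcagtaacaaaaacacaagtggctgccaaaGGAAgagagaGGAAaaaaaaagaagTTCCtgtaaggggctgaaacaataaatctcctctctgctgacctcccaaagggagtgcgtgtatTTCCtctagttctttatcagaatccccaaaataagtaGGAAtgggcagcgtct
Tie1: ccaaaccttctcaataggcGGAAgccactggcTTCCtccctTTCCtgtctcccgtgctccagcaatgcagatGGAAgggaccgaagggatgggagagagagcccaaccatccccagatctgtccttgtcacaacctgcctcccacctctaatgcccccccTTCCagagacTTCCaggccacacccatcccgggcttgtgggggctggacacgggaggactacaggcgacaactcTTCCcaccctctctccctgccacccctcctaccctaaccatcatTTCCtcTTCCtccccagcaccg
Eng: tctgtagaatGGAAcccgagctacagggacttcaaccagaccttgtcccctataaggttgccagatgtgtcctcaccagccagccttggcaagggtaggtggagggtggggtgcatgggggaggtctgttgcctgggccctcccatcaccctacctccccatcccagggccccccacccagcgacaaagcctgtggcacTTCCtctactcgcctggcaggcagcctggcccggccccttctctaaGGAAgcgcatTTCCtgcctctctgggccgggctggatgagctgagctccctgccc
The motif matched 6 times in the Emcn window, 9 times in the Tie1 window and 4 times in the Eng window. It was present in 96.0% of 32851 RefSeq promoters of the same length, with a median of 3 matches, so its presence does not set these genes apart. Promoter sequences were matched for 5 of the 9 members, the others being Kdr with 5 matches and Tek with 2. The Kdr window lies wholly after the annotated start of the gene and ends 667 bases after it. The Tek window runs from 47 bases before the annotated start to 253 after it. Whether the counts of matches go with the KO differences was not tested.

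All values are on a log2 scale and were centred, so that every array has the same median. A difference of 1 is therefore a 2-fold change. Values under 6.99, the 40th percentile of all values, were raised to that floor before any test, and 12 of the 14 member probe sets exceeded it on at least 2 arrays. The other two, 93884_at for Emcn and 92559_at for Vcam1, stayed below it on all 8 arrays and were not tested. Genes with more than 1 tested probe set were represented by the one of highest mean, and levels of different probe sets are not compared with each other.

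Several arrays stood apart from the rest. The E14.5 male arrays, KO and WT, correlated at r = 0.992 with each other and at 0.728 to 0.786 with the other 6, which correlated at 0.954 to 0.995 among themselves (8452 tested probe sets). The array labelled WT female E14.5 had 7.63 for the Y-linked Eif2s3y, against 4.86 to 6.04 on the other 3 female arrays and 6.91 to 8.12 on the male arrays, so it did not match its sex label in this gene, while its Xist value of 7.10 lay below the 7.69 to 8.13 of the other 3 female arrays and above the 4.07 to 4.79 of the male arrays. That array is the WT member of the female pair at E14.5. Wnt4 itself was lower in KO in every pair, with 8.59 in KO and 10.19 in WT females at E12.5, 8.34 and 9.26 in males at E12.5, 8.32 and 9.45 in females at E14.5, and 9.19 and 9.42 in males at E14.5. The male arrays had larger gaps between 3′ and 5′ actin probe sets (0.96 to 1.37) than the female ones (0.48 to 0.77), a sign of RNA length that was not tested as a part of any result here.

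The first question was how the markers stood in gonads without Wnt4. Averaged over both sexes and stages, 7 of 9 members were higher and 2 lower in KO, against 45.6% of all tested probe sets higher. The median difference was 0.10 for the members against −0.01 over all tested probe sets. When either E12.5 male array was left out, 5 members were higher and 3 lower, with a median of 0.04. No member passed the test (0 of 9, limma, adjusted p at 0.05 over 8452 probe sets, of which 0 were called, percent called 0). At an unadjusted p under 0.05 there were 3 of 9 members, against 5.79% of all probe sets, and 0 or 1 without an E12.5 male array. With values at the floor taken as equal, Emcn, Icam2, Pecam1 and Tie1 were higher in KO in all 4 pairs, that is 4 of 9 members, against 3.14% of all tested probe sets, and 0 of 9 were lower in all 4, against 3.77%. Members higher in KO in both pairs were 6 of 9 at E12.5 (17.2% of all), 4 of 9 in females (19.9%) and 6 of 9 in males (25.7%). These shares, and those by pair given below, include probe sets tied at the floor, which cannot count as higher or lower. Most members lay above the floor on all arrays, so the shares are not those of genes at a like level.

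**Figure D1:**
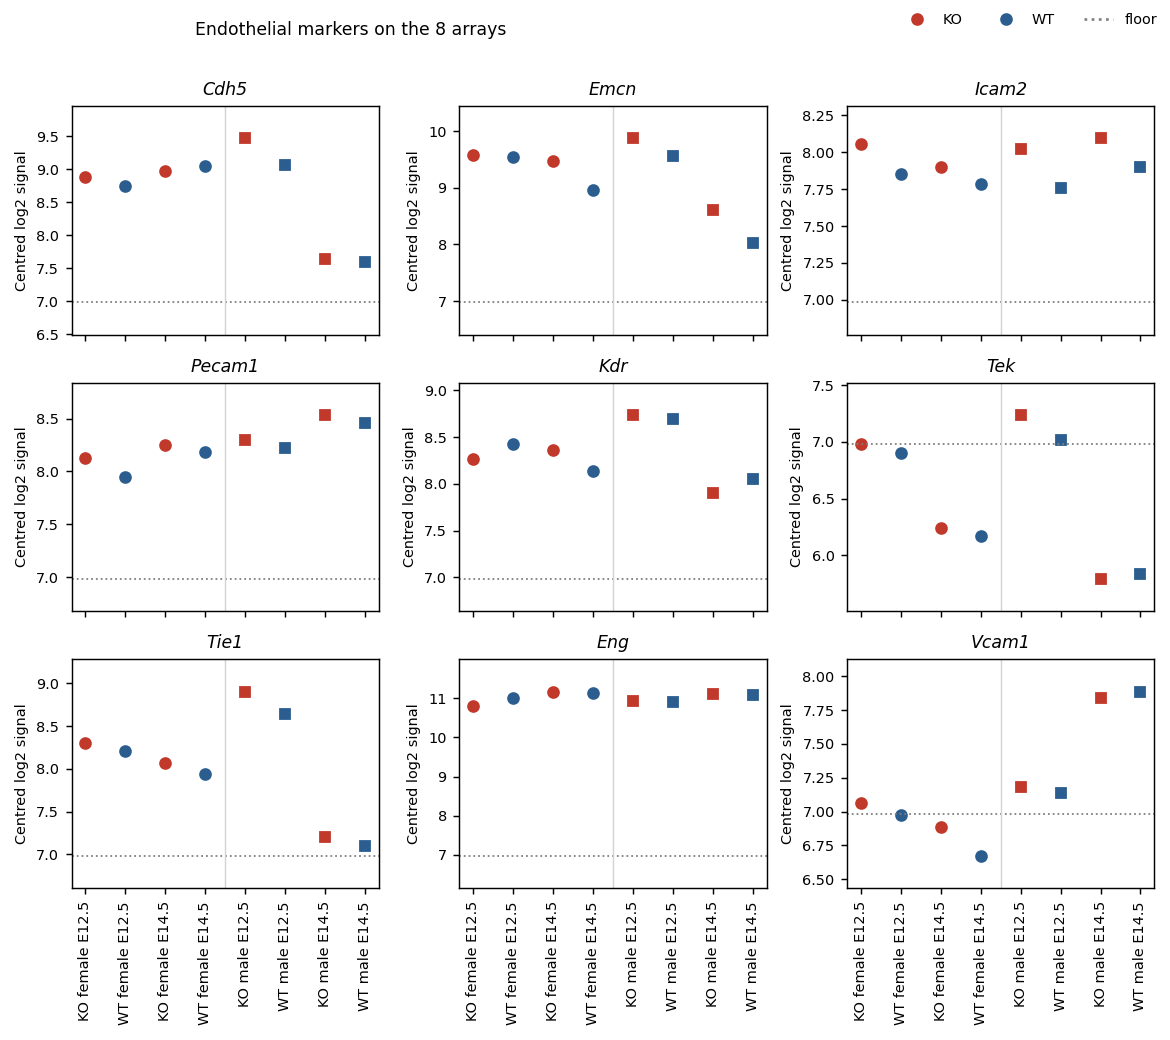
Centred log2 signal (vertical axis, a scale for each gene) of the probe set standing for each of the 9 genes on each of the 8 arrays (horizontal axis; red KO, blue WT; circles female, squares male; 1 array per point). Emcn, Tie1, Cdh5, Kdr and Tek sit lowest on the E14.5 male arrays, Eng varies little, and the dotted line is the floor at 6.99.

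Emcn encodes endomucin, a sialomucin of venous and capillary endothelium. Its probe set 93885_g_at had 9.58 in KO and 9.55 in WT females at E12.5, 9.87 in KO and 9.57 in WT males at E12.5, 9.47 in KO and 8.96 in WT females at E14.5, and 8.60 in KO and 8.02 in WT males at E14.5. The KO array was the higher of each pair, by 0.03 in the E12.5 females and by 0.58 in the E14.5 males. The fitted difference was 0.36 ± 0.10 (SE, adjusted p = 0.841). The second tested probe set, 94997_at, gave 9.49 in KO and 9.34 in WT females at E12.5, 9.76 and 9.38 in males at E12.5, 9.47 and 9.07 in females at E14.5, and 7.39 and 6.99 in males at E14.5. It was likewise higher in KO in every pair, with a fitted difference of 0.33 ± 0.06 (SE, adjusted p = 0.765). Without either array of the E14.5 female pair, which holds the array with the high Eif2s3y value, the 93885_g_at difference was 0.24, and without the E14.5 male arrays it was 0.29.

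Among the adhesion genes, Icam2 encodes an intercellular adhesion molecule that binds leukocyte integrins. Icam2 had 8.06 in KO and 7.85 in WT females at E12.5, 8.02 and 7.76 in males at E12.5, 7.90 and 7.79 in females at E14.5, and 8.09 and 7.90 in males at E14.5. The KO array was higher in each pair, the groups overlapped only where the lowest KO value (females at E14.5) met the highest WT value (males at E14.5), and the fitted difference was 0.19 ± 0.04 (SE, adjusted p = 0.822). Pecam1 encodes the junction protein CD31 and is also expressed by fetal germ cells. It had 8.13 in KO and 7.95 in WT females at E12.5, 8.30 and 8.22 in males at E12.5, 8.25 and 8.18 in females at E14.5, and 8.53 and 8.46 in males at E14.5. The fitted difference was 0.10 ± 0.05 (SE, adjusted p = 0.894), with the KO array higher in each pair and the groups overlapping across sexes and stages. Cdh5, the VE-cadherin of endothelial junctions, had 8.88 in KO and 8.74 in WT females at E12.5, 9.46 and 9.06 in males at E12.5, 8.98 and 9.05 in females at E14.5, and 7.63 and 7.60 in males at E14.5. The E14.5 female pair had the opposite sign to the other 3, and the fitted difference was 0.13 ± 0.08 (SE, adjusted p = 0.894). It was 0.04 without either E12.5 male array and 0.22 without either E14.5 male array.

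**Figure D2:**
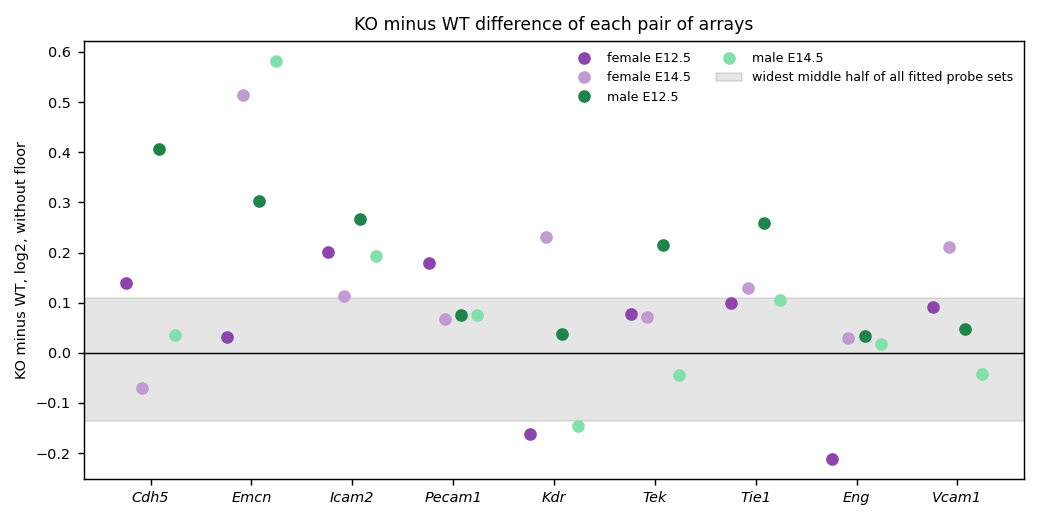
KO minus WT difference in centred log2 signal without floor (vertical axis) for each of the 9 genes in the female E12.5, female E14.5, male E12.5 and male E14.5 pairs (points, 1 pair each). The grey band reaches from the lowest lower quartile to the highest upper quartile of all tested probe sets over the 4 pairs, and Emcn in the E14.5 pairs and Cdh5 in the E12.5 male pair lie farthest above it.

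Among the receptors, Tie1 encodes an orphan tyrosine kinase receptor that modulates angiopoietin signalling. Its probe set 99936_at had 8.31 in KO and 8.21 in WT females at E12.5, 8.90 and 8.64 in males at E12.5, 8.07 and 7.94 in females at E14.5, and 7.20 and 7.10 in males at E14.5. The difference was positive in each pair and the fitted value was 0.15 ± 0.05 (SE, adjusted p = 0.841), close to the 0.16 ± 0.05 (SE, adjusted p = 0.841) of the second probe set, 161184_f_at. Kdr, the main VEGF receptor of endothelium, had 8.26 in KO and 8.42 in WT females at E12.5, 8.74 and 8.70 in males at E12.5, 8.37 and 8.14 in females at E14.5, and 7.90 and 8.05 in males at E14.5. The pairs split evenly in sign, and the fitted difference was −0.01 ± 0.08 (SE, adjusted p = 0.992). Eng encodes endoglin, a co-receptor for TGF-beta and BMP ligands. Eng had 10.79 in KO and 11.00 in WT females at E12.5, 10.92 and 10.89 in males at E12.5, 11.15 and 11.12 in females at E14.5, and 11.11 and 11.09 in males at E14.5. Its fitted difference was −0.03 ± 0.05 (95% interval −0.17 to 0.10), and only the E12.5 female pair was negative. Tek, the angiopoietin receptor TIE2, exceeded the floor on 2 arrays only, the E12.5 males, with 7.24 in KO and 7.02 in WT. On the other 6 arrays it had 5.79 to 6.98, so no fold is given for it there.

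Fitted within each sex, 0 of 9 members passed in females and 0 of 9 in males (percent called 0 in both). At an unadjusted p under 0.05 there were 0 in females, against 11.4% of all probe sets, and 3 in males, against 4.79%. The member median was 0.04 in females and 0.11 in males, against −0.02 and 0.01 over all probe sets. In females it was 0.11 with a floor at the 25th percentile, and in males it was 0.04 without either E12.5 array and 0.21 without either E14.5 array. The KO effect did not pass a test of a difference between the sexes for any member (0 of 9, percent called 0), and 0 had an unadjusted p under 0.05, against 11.5% of all probe sets.

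Fitted within each stage, with the sexes as the repeat, 0 of 9 members passed at E12.5 by the probe set that stood for the gene, against 0.0828% of all probe sets (7 of 8452). There were 2 members at an unadjusted p under 0.05, against 3.69%. The member median at E12.5 was 0.13, against 0 over all probe sets. Cdh5 was the highest, at 0.27 ± 0.10 (SE, adjusted p = 1), followed by Icam2 at 0.23 ± 0.08 (SE, adjusted p = 1). That order rests on the male pair, since in the E12.5 female pair Cdh5 differed by 0.14 and Icam2 by 0.20. At E14.5, 0 of 9 passed (percent called 0), and 1 had an unadjusted p under 0.05, against 4.18%. Emcn had the largest member difference there, at 0.55 ± 0.10 (SE, adjusted p = 0.364), and its second probe set gave 0.40 ± 0.10 (SE, adjusted p = 0.610). The Emcn call depended on the filter, since its adjusted p was 0.0230 with no floor and no filter and 0.000777 with a stricter filter (at least 6 arrays above the floor). The difference of the KO effect between stages passed for 0 of 9 members (percent called 0), with 1 member at an unadjusted p under 0.05, against 3.58% of all probe sets.

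**Figure D3:**
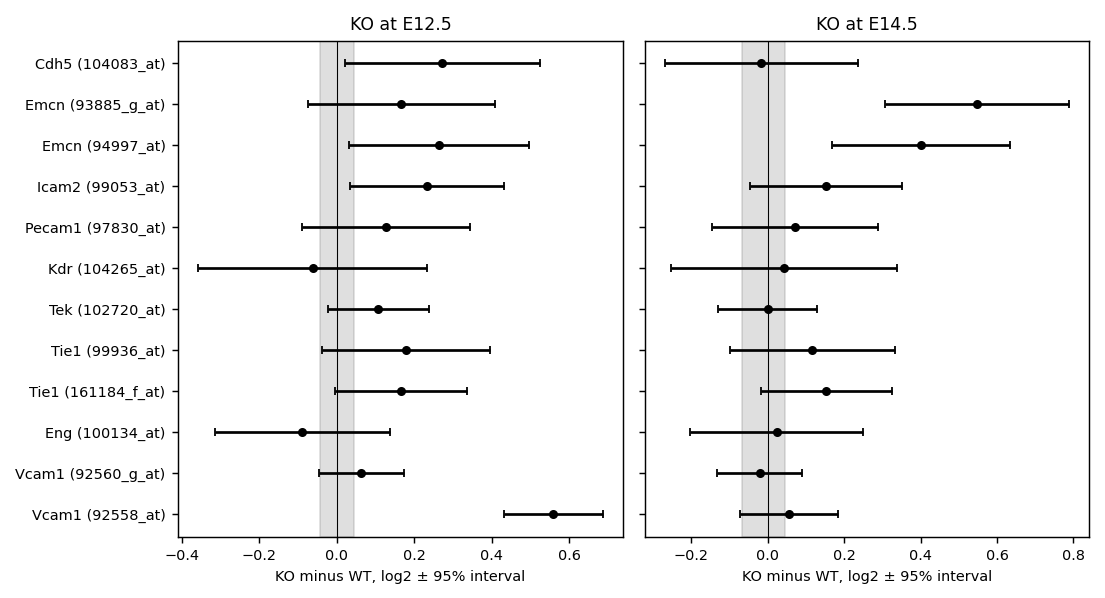
Fitted KO minus WT difference in log2 signal with its 95% interval (horizontal axis) for the 12 tested member probe sets (rows) at E12.5 (left) and E14.5 (right). The grey band runs from the lower to the upper quartile of all 8452 tested probe sets, and Vcam1 92558_at at E12.5 (0.56) and Emcn 93885_g_at at E14.5 (0.55) lie farthest from it.

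Vcam1, an adhesion molecule for leukocyte integrins that is also present on some non-endothelial cells, gave different answers by probe set. Its probe set 92558_at had 7.51 in KO and 6.95 in WT females at E12.5, and 8.18 in KO and 7.59 in WT males at E12.5. Both KO arrays were higher, and the rise in KO at E12.5 was 0.56 ± 0.05 (SE, adjusted p = 0.0433). The same probe set had 7.10 in KO and 6.70 in WT females and 6.04 in KO and 6.05 in WT males at E14.5, of which only the KO female value exceeded the floor. With the floor these E14.5 pairs differed by 0.11 in females and 0 in males, and without it by 0.40 and −0.01. Their disagreement enters the error of the fit, and the floor narrows it. The call is one of the 7 made at E12.5, and it was lost under 12 of 15 alternatives, with the difference between 0.53 and 0.59 in all of them. Probe set 92560_g_at, which stood for the gene, had 7.06 in KO and 6.97 in WT females and 7.18 in KO and 7.14 in WT males at E12.5, a difference of 0.06 ± 0.05 (SE, adjusted p = 1).

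**Figure D4:**
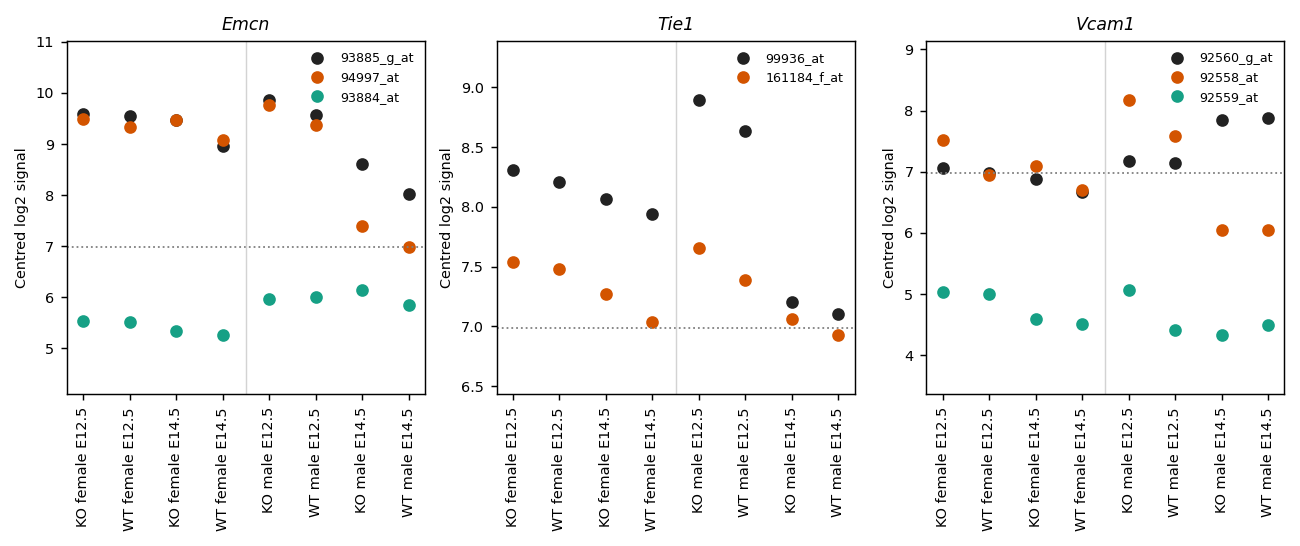
Centred log2 signal (vertical axis) of every probe set of Emcn, Tie1 and Vcam1 on the 8 arrays (horizontal axis, 1 array per point; the dotted line is the floor at 6.99). At E14.5 in males, Vcam1 92560_g_at is above its values on the other arrays, with 7.84 in KO and 7.88 in WT, while 92558_at is below its own, with 6.04 in KO and 6.05 in WT.

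Values of other cell types were set beside the KO comparisons as summed levels, the log2 of the sum of linear signals over a marker list. The germ cell list (12 of 15 genes on the array tested) ranged from 12.52 to 12.96 in KO and from 12.63 to 12.99 in WT. The macrophage and leukocyte list (10 of 16 tested) ranged from 11.11 to 11.46 in KO and from 10.96 to 11.44 in WT. For pericytes and smooth muscle (7 of 9 tested) the ranges were 11.21 to 11.74 in KO and 11.06 to 11.98 in WT. Sertoli markers (7 of 8 tested) spanned 11.09 to 12.46 in KO and 11.11 to 12.52 in WT, and Leydig and steroidogenic markers (7 of 7 tested) spanned 11.57 to 12.96 in KO and 11.41 to 13.42 in WT. Within pairs at E14.5, both of these last 2 sums were lower in KO, and so were the pericyte and germ cell sums. The macrophage sum was higher in KO females and lower in KO males. Pericyte and smooth muscle sums were 11.74 in KO and 11.81 in WT females, and 11.55 in KO and 11.98 in WT males. Germ cell sums were 12.96 in KO and 12.99 in WT females, and 12.52 in KO and 12.64 in WT males. Sertoli sums were 11.09 in KO and 11.78 in WT females, and 11.93 in KO and 12.42 in WT males, and Leydig and steroidogenic sums were 11.57 in KO and 12.29 in WT females, and 12.96 in KO and 13.42 in WT males. The Emcn difference at E14.5 was 0.55. At that stage, 7 of 7 Sertoli genes (median −0.51) and 6 of 7 Leydig and steroidogenic genes (median −0.54) were lower in KO. So were 6 of 7 pericyte and smooth muscle genes (median −0.18), with 0 called in these 3 lists. Of all tested probe sets, 43.9% were higher in KO at E14.5, with a median of −0.01. At E12.5, 6 of 7 Leydig and steroidogenic genes were higher in KO (median 0.14), against 46.1% of all. Of these, 1 was called, against 0.0828% of all. Of the Sertoli genes, 3 were higher and 3 lower at E12.5. The WT female of these pairs is the array with the high Eif2s3y value. The listed genes that were not tested exceeded the floor on at most 1 array. The part of these cells in the marker values was not tested.

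Related endothelial genes did not pass in KO either. The counts by direction stand beside 45.6% of all tested probe sets that were higher in KO. Of 10 tested other endothelial markers (17 of 25 on the array), 6 were higher and 4 lower in KO, with a median of 0.01. Cd93, a C-type lectin receptor of endothelium, was higher in every pair at 0.12 ± 0.05 (SE, adjusted p = 0.855). Of 9 tested arterial and Notch genes, 8 were higher, with a median of 0.06, among them Hey1, a Notch target repressor, at 0.17 ± 0.05 (SE, adjusted p = 0.841). Of 13 endothelial transcription factors, 8 were higher and 5 lower, and of 10 genes of the VEGF pathway, 6 were higher and 4 lower. Gata2, a zinc-finger factor of endothelial and blood precursors, was lower in every pair at −0.30 ± 0.05 (SE, adjusted p = 0.765). Flt1, the VEGF receptor that also acts as a decoy, was higher in every pair at 0.09 ± 0.05 (SE, adjusted p = 0.894). Of 13 TGF-beta and BMP genes, 6 were higher and 7 lower, of 9 junction and integrin partners, 4 and 5, and of the 2 tested angiopoietin pathway genes, 1 and 1.

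The second question was how the markers changed with stage. In females, 0 of 9 members passed, against 23.1% of all probe sets, and 3 had an unadjusted p under 0.05, against 39.8%. The members nearest to the threshold were Tie1 at −0.25 ± 0.07 (SE, adjusted p = 0.0592) and Eng at 0.25 ± 0.07 (SE, adjusted p = 0.0721). The second Tie1 probe set passed, at −0.35 ± 0.07 (SE, adjusted p = 0.0311). The difference was negative in both female pairs for 3 of 9 members, against 42.5%. Tek lay below the floor on all 4 female arrays.

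In males, 6 of 9 members passed, against 77.8% of all probe sets, so the members were called no more often than the array as a whole. Of these, 4 fell, against 39.9% of all probe sets, and 2 rose, against 38.0%, and 7 of 9 had an unadjusted p under 0.05, against 79.4%. Without centring, which moved the median of all probe sets to −0.69, 8 of 9 passed and the difference was negative for all 9. Cdh5 fell to 0.320 of its E12.5 level (log2 −1.65 ± 0.11, SE, adjusted p = 0.000185). Tie1 fell to 0.326 (log2 −1.62 ± 0.07, SE, adjusted p = 7.56e-05), and its second probe set fell by 0.50 on the log2 scale. Emcn fell to 0.378 (log2 −1.40 ± 0.14, SE, adjusted p = 0.000563), and its second probe set fell by 2.38. Kdr fell to 0.599 (log2 −0.74 ± 0.12, SE, adjusted p = 0.00301). Pecam1 rose by 0.23 ± 0.07 (SE, adjusted p = 0.0240), and Vcam1 by 92560_g_at rose by 0.70 ± 0.04 (SE, adjusted p = 0.000146), whereas 92558_at fell by 0.90. The last value is limited by the floor, under which both E14.5 male values of 92558_at lie, and without floor it was −1.84. Icam2 (0.11 ± 0.06), Eng (0.19 ± 0.07) and Tek (−0.14 ± 0.06, limited by the floor) did not pass. Tek ran from −1.31 to −0.04 under 14 alternatives and was called in 7 of them. Under 15 alternatives, the Pecam1 call was lost in 6 (without any 1 male array or either E14.5 female array), the Kdr call in 4 (without any 1 male array) and the Emcn call in 3 (without either E12.5 male array or the WT E14.5 male array).

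Cdh5, Emcn and Tie1 were at least 2-fold lower at E14.5 in both male pairs, that is 3 of 9 members against 11.8% of all tested probe sets. The Tek values at E14.5 (5.79 in KO, 5.84 in WT) lay below the floor. All of these comparisons rest on the E14.5 male arrays, which stood apart, and they cannot be made without them. Without centring, Pecam1, Icam2, Eng and Vcam1 turned negative, at −0.55, −0.67, −0.59 and −0.08, while Cdh5, Emcn, Kdr and Tie1 stayed negative. The stage change differed between males and females for 5 of 9 members, against 69.0% of all probe sets, a test added after the data were seen.

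**Figure D5:**
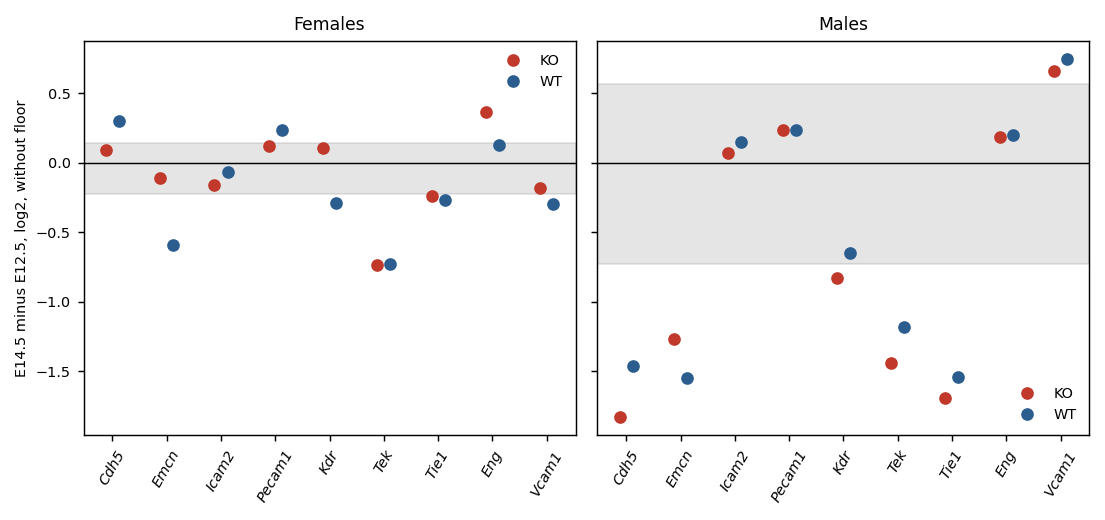
E14.5 minus E12.5 difference in centred log2 signal without floor (vertical axis) for the 9 genes in females (left) and males (right), with 1 point for the KO pair (red) and 1 for the WT pair (blue). The grey band reaches from the lowest lower quartile to the highest upper quartile of all tested probe sets in the 2 pairs. It is wider in males, where Cdh5, Emcn and Tie1 lie below it, as do the KO point of Kdr and both points of Tek. The male E14.5 values of Tek are under the floor of 6.99, and both male points of Vcam1 lie above the band.

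Other vascular genes also went in both directions in males, where 38.0% of all probe sets rose and 39.9% fell. Among the 10 tested other endothelial markers, 4 rose and 4 fell. Vwf, the clotting factor carrier of endothelial granules, rose by 0.79 ± 0.05, and Nos3, the endothelial nitric oxide synthase, rose by 0.63 ± 0.07. Mcam, a junction adhesion molecule, fell by 0.95 ± 0.14, and Cldn5, a tight junction claudin, fell by 0.56 ± 0.12 (all SE, with adjusted p of 0.00969 at most). Of 13 endothelial transcription factors, 3 rose and 8 fell. Etv2 rose by 1.28 and Mef2c by 1.155, while Lmo2 fell by 0.86 and Sox18 by 0.91. Of 10 VEGF pathway genes, 5 rose, among them Vegfb by 1.10, and 2 fell. Those that fell were Flt4, the lymphatic VEGF receptor, by 0.93 and Nrp1, a VEGF co-receptor, by 1.07. Of 9 junction and integrin partners, 7 fell and 1 rose, with Msn, a linker of membrane and actin, that fell by 2.21 ± 0.06 on the log2 scale. Of 9 arterial and Notch genes, 3 rose and 1 fell, of 13 TGF-beta and BMP genes, 2 rose and 4 fell, and of the 2 tested angiopoietin pathway genes, 1 rose and 0 fell.

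Summed levels of other cell types were also set beside the male stage comparison. Summed pericyte and smooth muscle levels were 11.55 to 11.98 at E14.5 and 11.21 to 11.30 at E12.5, macrophage levels were 11.39 to 11.44 and 10.96 to 11.11, and Leydig and steroidogenic levels were 12.96 to 13.42 and 11.74 to 11.90. Erythroid levels (8 of 8 tested) were 14.74 to 15.00 at E14.5 and 15.70 to 15.74 at E12.5. Every erythroid sum leaves out 1 of these genes, which had a missing value. Germ cell levels were 12.52 to 12.64 and 12.65 to 12.72. The part of these lists in the marker changes was not tested.

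A further question was how the markers differed between the sexes. At E12.5, 1 of 9 members passed, against 16.3% of all probe sets, and 5 had an unadjusted p under 0.05, against 36.5%. That gene was Tie1, higher in males by 0.51 ± 0.07 (SE, adjusted p = 0.0238), with 8.90 in KO and 8.64 in WT males and 8.31 in KO and 8.21 in WT females. The groups did not overlap, but the second Tie1 probe set gave 0.02 ± 0.07 (SE, adjusted p = 0.976), and the call was lost in 10 of 17 alternatives, among them leaving out any 1 array. Nearest to the threshold among the rest were Cdh5 at 0.45 ± 0.11 (SE, adjusted p = 0.0607), Kdr at 0.37 ± 0.12 (SE, adjusted p = 0.0892) and Pecam1 at 0.22 ± 0.07 (SE, adjusted p = 0.0810). In both pairs 7 of 9 members were higher in males, against 32.1% of all tested probe sets. Beside this, erythroid levels were 15.70 to 15.74 in males and 15.05 to 15.11 in females at E12.5, and the actin gap was 0.96 to 1.10 in males and 0.48 to 0.49 in females. The part of either in the sex difference was not tested.

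At E14.5, 5 of 9 members passed, against 77.5% of all probe sets, and the same count had an unadjusted p under 0.05, against 79.0%. There were 3 lower in males, against 38.0%, and 2 higher, against 39.5%. Cdh5 was lower in males by 1.40 ± 0.11 on the log2 scale, with 7.63 in KO and 7.60 in WT males and 8.98 in KO and 9.05 in WT females. Emcn was lower (−0.90 ± 0.14, SE, adjusted p = 0.00285) and so was Tie1 (−0.85 ± 0.07, SE, adjusted p = 0.000301). Pecam1 was higher in males (0.27 ± 0.07, SE, adjusted p = 0.0136) but −0.11 without centring, and Vcam1 by 92560_g_at was higher (0.88 ± 0.04, SE, adjusted p = 0.000101). Both female values of 92560_g_at (6.89 in KO, 6.68 in WT) lay below the floor, which limits that value, and the pairs without floor differed by 0.96 in KO and 1.21 in WT. By 92558_at, with 3 of 4 values below the floor, the difference was −0.06 with the floor and −0.85 without it. Under 15 alternatives, the Pecam1 call was lost in 6 (without any 1 male array or either E14.5 female array), the Emcn call in 4 (without any 1 male array) and the Tie1 call in 1 (the second probe set). Germ cell levels beside Pecam1 were 12.52 to 12.64 in males and 12.96 to 12.99 in females, and their part in its value was not tested. Without the array labelled WT female E14.5 the values were −1.14 for Emcn and −0.87 for Tie1.

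With the E14.5 males set aside, 7 members lay above the floor on all 6 remaining arrays. Pearson's r over the 21 pairs of these genes had a median of 0.32 and ran from −0.63 (Tie1 with Eng) to 0.91 (Kdr with Tie1), with 7 pairs over 0.5 and 5 below 0. These are descriptions over 6 arrays that share stage, sex and genotype effects. The mean of the 7 members was highest on the KO male E12.5 array, at 9.17, and lowest in the WT female E14.5 array, at 8.74. Among 1925 probe sets that varied enough, the genes closest to that mean were Sema4b (r = 0.989), Ift20 (0.981), Bcl2l2 (0.978) and Ring1 (0.975). For single members, the closest were Wwc2 for Tie1 (r = 0.999), Plagl1 for Emcn (0.994), Gsn for Eng (0.983) and Creb3l1 for Pecam1 (0.967).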

How the data were processed

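Gene expression was measured on 8 MG_U74Av2 arrays, with 1 array per group. The authors deposited 1 table of log2 values, made with MAS5 per the submitters' processing notes, and no source used here gives its version or any later step. In the KO male E12.5 column, 14 deposited cells held whole numbers from 41278 to 41284 in place of log2 values. They were set to missing, and none belongs to a member. Genes were named from the platform annotation (10833 probe sets with 1 gene, 396 with several, 1193 with none), and 66 control probe sets were left out. Arrays were centred to a common median, with shifts of −0.34 to 0.47, values under the 40th percentile were raised to it, and probe sets above it on at least 2 arrays were fitted in limma 3.58.1 under R 4.3.3 (trend, empirical Bayes, two-sided, Benjamini-Hochberg at 0.05 over 8452 probe sets). One fit had sex by genotype and sex by stage, the other sex by stage and stage by genotype. Each left 2 residual degrees of freedom, so the error is the disagreement between the pairs that serve as repeats, and nothing in the labels says how many embryos stand behind it. The fits were run on simulated data with independent noise and the same KO effect in every pair, without floor, sex or stage effects. That run does not measure how the p-values hold on these arrays. The number of arrays limits the precision. The members and lists were chosen with earlier results of these data known. All members were named, with every probe set. Genes of other lists were named from those past the threshold, not all of which are given. Where none passed, they were named from those of 1 sign in all pairs, up to 6 in each direction by the smaller pair difference. Genes most like the members were ranked by Pearson's r. Several motifs were looked for in the promoters, and the ETS core alone is given. The alternatives changed the centring, floor, filter, trend, probe set, model and arrays.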

Additional observations from a re-analysis of the deposited data

Results flagged for a closer look

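The change with stage, E14.5 minus E12.5, differed between males and females in 5 of 9 members by the sex-by-stage term, a comparison chosen after seeing the data and called in 69.0% of all probe sets. The male change minus the female change was −1.84 for Cdh5, −1.06 for Emcn, −0.65 for Kdr and −1.36 for Tie1 on the log2 scale. For Vcam1 it was 0.74 by 92560_g_at, while 92558_at gave −0.69 (limma, adjusted p = 0.0528), and both are limited by the floor. The second Tie1 probe set, 161184_f_at, gave −0.15 (limma, adjusted p = 0.245), and the second Emcn probe set, 94997_at, gave −2.23. All of these values rest on the E14.5 male arrays, which stood apart from the other 6.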

How the results depend on the processing

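No paired analysis was possible because the labels give no replicate numbers, so that the sex and stage terms of the fits are the one pairing of KO with WT. Leaving out 1 array left 1 residual degree of freedom. The count of members called in KO over both sexes, in each sex, and for the KO-by-sex and KO-by-stage differences was 0 under every alternative run. At E12.5 in KO it was 1 with the second probe sets, and at E14.5 it was 1 with no floor and no filter and 1 with the filter at 6 arrays. For stage in females it was 5 without centring, 2 with no floor and no filter, and 1 with quantile normalization, a floor at the 25th percentile, at least 6 arrays, no intensity trend or the second probe sets. For males minus females at E12.5 it was 6 without centring, 3 with no floor and no filter, 2 with at least 6 arrays, 0 with the second probe sets, 0 without the E14.5 male arrays and 0 without any 1 array. At E14.5 it was 7 without centring, 6 with no floor and no filter or no intensity trend, 4 with at least 6 arrays, 3 with the second probe sets and 3 to 5 when 1 array was left out. For stage in males it was 8 without centring, 7 with quantile normalization, a floor at the 25th percentile or no floor and no filter, 5 with at least 6 arrays and 4 to 6 when 1 array was left out. The stage-by-sex count was 8 without centring and 3 with the second probe sets. With the filter at 6 arrays, Tek and Vcam1 were not tested, so every count given for it is out of 7 members. Calls over all probe sets moved too. For stage in females they were 5156 without centring and 3794 with no floor and no filter, against 1949 in the main fit. For males minus females at E12.5 they were 2873 and 3488, against 1377. For males minus females at E14.5 they were 6150 without centring, against 6551. For KO at E14.5 they were 67 with no floor and no filter and 88 with the filter at 6 arrays, against 0. The number of probe sets tested changed with the filter. The cause of these shifts was not tested.

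Directions that reversed were mostly of small values. Without centring, which shifts the median of all probe sets by up to −0.69, the stage values in females were −0.0534 for Cdh5, −0.0042 for Eng and −0.0746 for Pecam1, and in males −0.588 for Eng, −0.670 for Icam2, −0.547 for Pecam1 and −0.0761 for Vcam1. Males minus females without centring gave 0.0727 for Icam2 at E12.5, and −0.233 for Icam2 and −0.114 for Pecam1 at E14.5. Quantile normalization gave 0.0125 for Cdh5 in KO at E14.5, and −0.0223 and 0.102 for Eng in males minus females at E12.5 and E14.5. With a floor at the 25th percentile or none, Vcam1 in KO at E14.5 was 0.0842. With its second probe set it was 0.0558, and that probe set gave −0.896 for stage in males and −0.0558 for males minus females at E14.5. Kdr in KO over both sexes was 0.0359 without the E14.5 male arrays. When 1 array was left out, KO over both sexes ranged from −0.108 to 0.0886 for Kdr, −0.0929 to 0.0272 for Eng and −0.0015 to 0.0438 for Vcam1. KO at E12.5 ranged from −0.162 to 0.0368 for Kdr and −0.211 to 0.0330 for Eng, and KO at E14.5 from −0.0693 to 0.0362 for Cdh5 and −0.145 to 0.232 for Kdr. Stage in females ranged from −0.289 to 0.104 for Kdr. Males minus females ranged at E12.5 from −0.0860 to 0.396 for Emcn and −0.107 to 0.133 for Eng, and at E14.5 from −0.163 to 0.0776 for Eng and −0.352 to 0.240 for Vcam1 92558_at.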
